A study of Homo sapiens with 8 samples.

Results

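The subject here was a stretch of chromosome 1 near the tip of its short arm, from 564400 to 570400 (hg19), where a piece of mitochondrial DNA was inserted into the nuclear genome. It carries the pseudogenes MTND2P28, MTCO1P12, MTCO2P12, MTATP8P1, MTATP6P1 and MTCO3P12. The members were the NUP98-binding regions that overlapped this interval by at least 1 bp in the region lists of embryonic stem cells (ESCs) and neural progenitor cells (NeuPCs). The interval itself was selected on the position and crowding of regions in the NeuPC list, so the number, length and score of the regions in it are a description and were not tested. The NeuPC list placed 7 of its 3205 regions in the interval and the ESC list placed 0 of its 2499, which makes 7 of 5704 regions in both lists.

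NUP98 is a nucleoporin, a component of the nuclear pore complex that also occurs at sites inside the nucleus. ChIP-Seq sequences the DNA recovered with a crosslinked protein by means of its antibody, and region lists give the places where that DNA piles up. The ESCs were the human line HUES6, grown without feeder cells. The NeuPCs were derived from HUES6 through embryoid bodies and rosettes and grown with FGF2. Each of these cell types had 1 NUP98 pull-down library, made with the polyclonal antibody of catalogue number 2292, and 1 library with normal rabbit IgG (catalogue number 2729), all after fixation in 1% formaldehyde for 10 min. Both cell types thus come from 1 cell line, and no value has an error from replicates. Libraries of neurons and of IMR90 lung fibroblasts belong to the same series but were not used here, the IMR90 list because on some chromosomes its positions run well past the hg19 ends, although its label names that build.

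The mitochondrial genome is a small circular DNA present in many copies per cell, and it encodes subunits of the respiratory chain and of ATP synthase together with the tRNAs and rRNAs needed to translate them. Over evolution, fragments of it were copied into the chromosomes as nuclear mitochondrial insertions. Their gene copies are read with the nuclear genetic code and carry no function as proteins, so they are annotated as pseudogenes. A recent insertion can remain nearly identical to mitochondrial DNA over long stretches. A short sequencing read from such a stretch matches the nuclear copy and the mitochondrial genome about equally well, and its placement then depends on how the aligner treats reads with several matches and on whether the mitochondrial genome is part of the reference. A pile of reads on such an insertion is therefore compatible with nuclear DNA, with mitochondrial DNA or with a mixture, and a region list alone does not tell them apart.

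Each of the 6 pseudogenes was found by symbol in the RefSeq annotation, whose assembly is GRCh38.p14 and not the build of the lists, so it served for names, order and sequence only. There they followed each other in the order MTND2P28, MTCO1P12, MTCO2P12, MTATP8P1, MTATP6P1 and MTCO3P12. MTND2P28 is a copy of the gene for a subunit of NADH dehydrogenase (complex I). MTCO1P12, MTCO2P12 and MTCO3P12 are copies of the genes for the 3 mitochondrially encoded subunits of cytochrome c oxidase (complex IV). MTATP8P1 and MTATP6P1 are copies of the overlapping genes for membrane subunits of ATP synthase. The originals, MT-ND2, MT-CO1, MT-CO2, MT-ATP8, MT-ATP6 and MT-CO3, lie in the same order in the mitochondrial genome.

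A further pseudogene, MTND1P23, a copy of the complex I gene MT-ND1, stood directly before MTND2P28, where MT-ND1 stands in the mitochondrial genome. These 7 pseudogenes formed a run with no other gene between them except a microRNA gene. The insertion thus held copies of 7 of the 13 mitochondrial protein genes. It was bordered by LOC101928626, a long non-coding RNA gene, on the side of MTND1P23 and by the pseudogene WBP1LP6 on the side of MTCO3P12.

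The microRNA gene, MIR12136, lay between MTCO1P12 and MTCO2P12. In the mitochondrial genome that place holds 2 tRNA genes, for serine (TRNS1) and for aspartate (TRND). RefSeq gives the mature microRNA from the minus strand of the insertion, and it is shown because its gene lies between the pseudogene copies. Its seed, bases 2 to 8, is in capitals.
hsa-miR-12136: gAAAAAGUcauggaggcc
None of the other 2544 mature microRNAs in the RefSeq table had this seed.

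One end of the MTND1P23 annotation lies in the RefSeq promoter window of LOC101928626, which reaches from 250 bases before to 50 bases after the start of that gene. It lies on the minus strand at chr1:628960-629259 in GRCh38.p14, a position that must not be set beside the hg19 positions of the regions. The first 198 of its 300 bases, in capitals, belong to MTND1P23, and the 102 bases in lower case lie outside it. The window is printed because it holds annotated pseudogene sequence of the stretch. Whether the end of the annotation is the edge of the insertion was not determined.
LOC101928626 window: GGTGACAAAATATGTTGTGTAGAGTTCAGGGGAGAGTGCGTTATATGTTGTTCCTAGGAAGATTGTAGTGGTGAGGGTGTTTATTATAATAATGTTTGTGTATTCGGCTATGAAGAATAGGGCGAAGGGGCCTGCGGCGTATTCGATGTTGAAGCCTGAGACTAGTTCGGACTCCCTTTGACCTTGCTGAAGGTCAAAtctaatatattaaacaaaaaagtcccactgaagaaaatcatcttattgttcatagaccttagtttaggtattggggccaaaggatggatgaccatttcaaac
No stretch of 20 bases from the capitals, on either strand, was found in the other 35115 promoter windows of RefSeq. These windows hold no mitochondrial DNA, so this says nothing about the match to the mitochondrial genome, whose sequence was not analysed here. They cover only the starts of annotated genes. The search thus also says nothing about other nuclear copies of MT-ND1, whose sequences were not searched.

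In NeuPCs, NUP98-binding regions covered most of the interval. The 7 regions reached from 565018 to 570301, a span of 5284 bp, and together held 3782 bp. This was 71.6% of the span and 63.0% of the 6001 bp of the whole interval. The first region began 618 bp after the start of the interval and the last ended 99 bp before its end. No NeuPC region on chromosome 1 lay before them, and the next one, from 1447524 to 1447674 with a score of 75.37, was 877222 bp away. The regions of the insertion thus stood alone at this end of the chromosome.

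The 7 regions are numbered here in order of position on chromosome 1, all in hg19, and each carries a score from the authors' region calling, whose unit is not stated. Region 1 ran from 565018 to 565425, was 408 bp long and had a score of 153.41. Region 2 ran from 565594 to 565866, was 273 bp long and had a score of 85.11. Region 3 ran from 566031 to 566799, was 769 bp long and had a score of 294.95. These regions made up the first part of the covered stretch, and region 3 held the highest score of the insertion.
Region 4 ran from 567065 to 567835, was 771 bp long and had a score of 116.51. Region 5 ran from 567866 to 568416, was 551 bp long and had a score of 55.25. Only 30 bp separated regions 4 and 5, and region 5 held the lowest score of the insertion.
Region 6 ran from 569268 to 569608, was 341 bp long and had a score of 65.85. Region 7 ran from 569633 to 570301, was 669 bp long and had a score of 136.16. The last regions were 24 bp apart and again differed in score.

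The 7 regions left 6 gaps, and joining regions separated by 300 bp or less gave 2 blocks. Regions 1 to 5 followed each other with gaps of 168, 164, 265 and 30 bp, and formed a block of 3399 bp of which 81.6% was covered. An uncovered stretch of 851 bp separated this block from regions 6 and 7, which formed a block of 1034 bp with 97.7% covered. Both blocks held high and low scores. Regions 1, 3, 4 and 7 had scores above 100, and regions 2, 5 and 6 had lower ones.

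**Figure D1:**
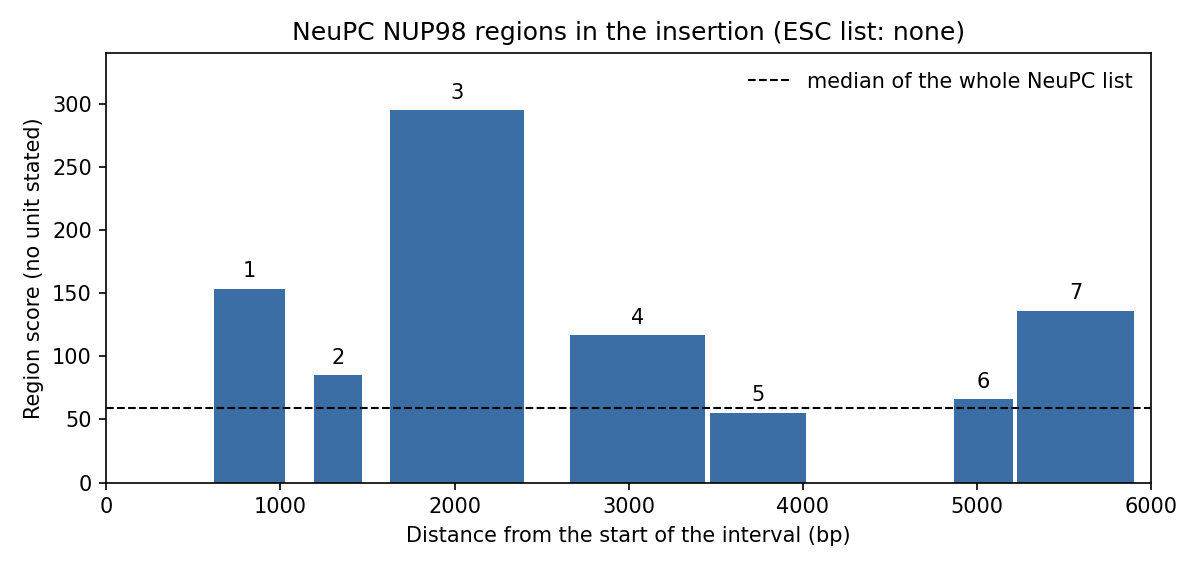
NUP98-binding regions of the NeuPC list in the insertion. Each bar is a region drawn to scale along the interval (x axis, distance in bp from its start) with its score as height (y axis, no unit stated), and the dashed line is the median score of the whole list, 59.38. Of the 7 regions, 6 rise above the line and region 5, at 55.25, stays below it.

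Which of the pseudogenes lie under these regions was not determined, because it needs an annotation in hg19. The position of the 851 bp gap relative to MTCO2P12, MTATP8P1, MTATP6P1 and MTCO3P12 is therefore not given. The block structure can be stated only as distances: the first block ended 3398 bp and the second began 4250 bp after the first covered base.

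The regions of the insertion were long for the NeuPC list. Their lengths ran from 273 to 771 bp with a median of 551 bp, against a median of 121 bp over all 3205 regions. All 7 were at least 250 bp long, a length that 0.905% of the list reached (29 regions). Of the 6 regions in the list of at least 500 bp (0.187%), 4 lay in the insertion, namely regions 3, 4, 5 and 7. By length, region 4 ranked 3rd, region 3 4th, region 7 5th, region 5 6th and region 1 8th in the list. The insertion held 0.218% of the regions of the list but 0.954% of its bases, and on chromosome 1 it held 2.49% of the 281 regions and 9.97% of the bases.

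Their scores were spread over nearly the full range of the list. The list ran from 50.01 to 314.4, and the scores in the insertion from 55.25 to 294.95 with a median of 116.51, against 59.38 in the list. Scores of 100 or more were found in 4 of the 7 regions, and in 1.09% of the list (35 regions). Scores of 60 or more were found in 6 of the 7, and in 44.6% of the list. Region 3 ranked 2nd of 3205 by score, region 1 10th, region 7 16th and region 4 24th. Region 2 ranked 79th and region 6 673rd, and region 5 ranked 2659th, lower than most of the list. The thresholds of 100 and of 250 and 500 bp were set with these values known.

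Regions of like length could have unlike scores. Regions 3 and 4 were 769 and 771 bp long, while their scores were 294.95 and 116.51. Region 5, with 551 bp, was longer than region 1, with 408 bp, and had a lower score. Regions 3 and 7 were longer than regions 2 and 6 and had higher scores, but other pairs went the opposite way. Region 6, with 341 bp, scored 65.85, below the 85.11 of region 2, with 273 bp. Region 7, with 669 bp, scored 136.16, below the 153.41 of region 1. In the plot of length against score all 7 regions lay among the longest of the list, and 4 of them also among the highest scores.

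**Figure D2:**
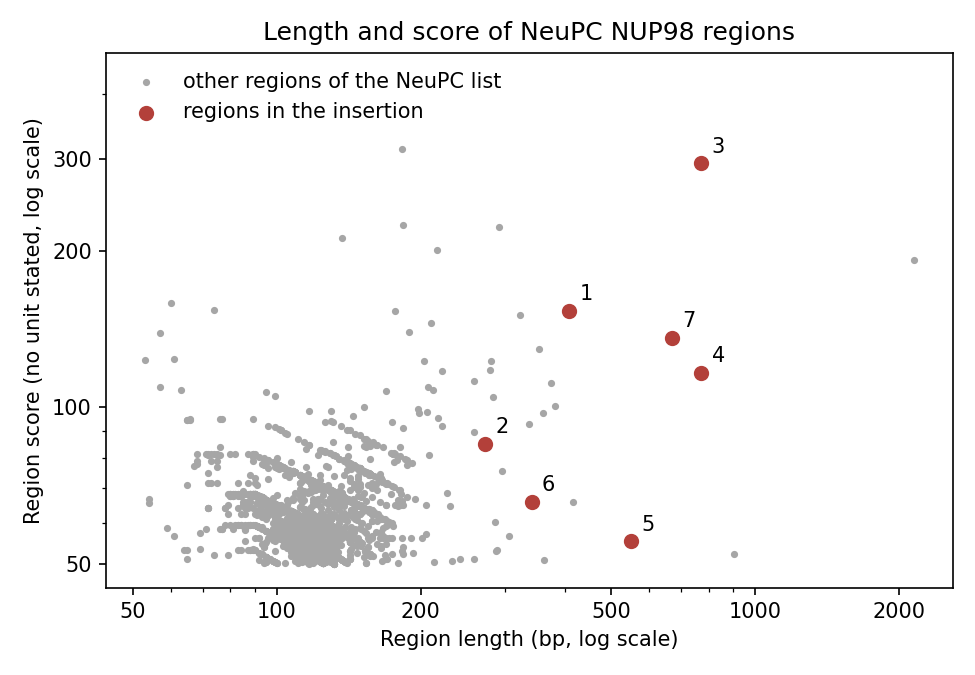
Length (x axis, bp, log scale) and score (y axis, no unit stated, log scale) of the 3205 NeuPC regions. Grey points are regions elsewhere in the genome, and the 7 numbered red points, from 273 to 771 bp, are the regions in the insertion, which lie to the right of the bulk around 121 bp.

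The insertion held the group with the most regions and the most covered bases in the NeuPC list, while 15 other groups had a larger span. After joining neighbours separated by 10 kb or less, the NeuPC list had 41 other groups, 38 of 2 regions and 3 of 3 regions, with no larger one. Their regions covered a median of 7.25% of each group's span, and no other group covered more than 700 bp in all, against 3782 bp in the insertion. A higher share than the 71.6% of the group in the insertion was found in 3 groups, each of 2 neighbouring regions within at most 296 bp. Among the 30 other groups that spanned more than 1 kb, the highest share was 31.1%.

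The group with the most regions in the ESC list, on chromosome 1 from 186283107 to 186304516, held 18 regions of 57 to 338 bp that covered 13.4% of its span, with scores up to 2177.08. The insertion had fewer regions, their median length was 551 bp against 157.5 bp, and its 3782 covered bp exceeded the 2871 bp of that group. Scores of the lists were not set against each other, because the sources used here do not state whether they share a scale.

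**Figure D3:**
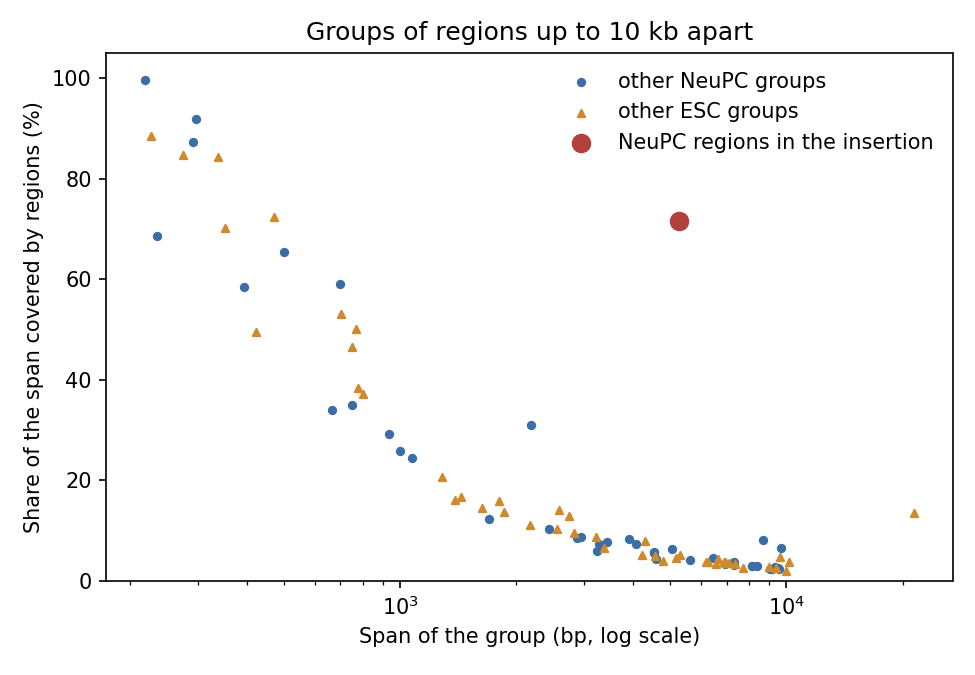
Span (x axis, bp, log scale) and share of the span covered by regions (y axis, %) of groups of at least 2 regions up to 10 kb apart. Blue circles are NeuPC groups and orange triangles ESC groups. The red circle is the group of NeuPC regions in the insertion, which combines a span of 5284 bp with a cover of 71.6%.

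In ESCs no region of the list overlapped the interval. If the 2499 regions are treated as independent draws, a count of 0 allows a share of up to 0.120%, counting error only. With 1 NUP98 library, this limit says nothing of the spread between libraries of ESCs. The nearest ESC region, from 1317951 to 1318138 with a score of 55.05, lay 747649 bp from the insertion. Missing from the other list was the common case in the lists used here. Only 0.0312% of the NeuPC regions (1 of 3205) overlapped an ESC region, and none of those in the insertion did. The share of the insertion, 0 of 7, is thus near that of the whole list. The paper reports more sharing: a majority of its NeuPC sites, but not nearly all, were absent from its other cell types, which included IMR90 cells. The difference from 1 of 3205 was not examined. Total and mappable reads of each library are given in a supplementary figure of the paper but were not used here. A lack of reads on the insertion in ESCs and a lower depth were thus not told apart. The lists also say nothing of the reads of the IgG libraries on the insertion.

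Neither list held a region on the mitochondrial genome itself. The NeuPC list named 36 chromosomes and contigs and the ESC list 37, and regions on a mitochondrial contig numbered 0 of 3205 and 0 of 2499. Without the mitochondrial genome in the reference these counts were bound to be 0, so no upper limit is drawn from them. Whether the mitochondrial genome was part of the reference, and how reads with several matches were placed, is not given in the sources used here. The part that mitochondrial DNA has in the regions of the insertion was not tested.

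The insertion is not the only source of such copies. RefSeq (GRCh38.p14) names 474 pseudogenes of mitochondrial protein genes, including 58 of MT-CO1, 47 of MT-CO3, 41 of MT-ND2, 37 of MT-ND1, 34 of MT-CO2, 31 of MT-ATP6 and 4 of MT-ATP8. They fell into 178 runs, where a pseudogene with no other beside it was also counted as a run. Of these runs, 13 held more members than the 7 of the insertion, up to 12. Runs with at least as many pseudogenes as that of MTND1P23 to MTCO3P12 were thus found elsewhere in the genome. A run was counted by neighbours in the annotation, without a limit on distance or a check of order, so it need not be a single insertion. Whether NUP98-binding regions of these lists lie on the other runs was not determined, for want of their hg19 positions.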

How the data were processed

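NUP98 and IgG ChIP-Seq libraries of ESCs and NeuPCs were sequenced by the authors on an Illumina GAII, and the regions were called by them. The deposited lists hold a score per region in the authors' files, with no unit. Their track lines name MACS, without version or parameters, whereas the study's methods state that peaks were called in Genomatix by an Audic-Claverie procedure. The labels give the build as hg19 (GRCh37). The control library and the treatment of duplicate and multiply mapped reads are not given in the sources used here. The lists hold no read numbers, so the depth behind a region is unknown.

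Positions were converted to count from 1. Regions overlapping the interval by at least 1 bp were kept, and their lengths, gaps, covered bases and ranks in the whole list were computed with Python 3.11.15 and scipy 1.17.1. Functions for overlap, cover and grouping were checked on made-up regions. Figures were drawn with matplotlib 3.10.9. No test was made, since each cell type has 1 list. The named genes were the 6 pseudogenes, their mitochondrial originals and the genes annotated next to them. The interval, its members and all lists and thresholds were chosen with earlier results of these data known. RefSeq (GRCh38.p14) gave names, gene order and sequences. Its table was read in file order to find neighbours. Coordinates were not converted between builds. The IMR90 list, with adjusted p-values by the authors, was not used.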

Additional observations from a re-analysis of the deposited data

How the results depend on the processing

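Of 22 comparisons with an alternative, over 6 results, 10 left the value exactly equal and 7 changed it within the tolerance. The tolerance was 1.5 times for a count, the range over the regions for a median and a 95% binomial interval for a share. A median over part of the regions cannot leave their range, so no median could move. Several of the equal values were also bound to stay equal. The interval for the covered share took bases as independent, although they lie together in 7 regions, and is thus too narrow. Among the 5 comparisons that moved further was the merging of regions up to 1 kb apart. It turned the 7 NeuPC regions into 1, because no gap in the insertion is that long. The share of the interval covered moved from 63.0% to 71.6% when counted from the first to the last region. It was 53.8% in the 50% of the list with the highest scores and likewise 53.8% with scores of at least 60, both of which remove region 5, and 50.2% without region 4, the longest. The number of ESC regions was 0 under each of the 5 settings tried. Only the interval widened by 10 kb on each side could have raised it, since the others select from or merge an empty set. Within the tolerance, the 7 NeuPC regions became 6 in the higher-scoring part of the list, the median score was 101 without region 3, and the median length was 479.5 bp without region 4. The count of pseudogenes under a region, with its alternative, was not run, because it needs an annotation in hg19. No paired analysis was possible because only 1 NUP98 library was made per cell type. The limits are the missing read numbers per region, the unused read numbers of the libraries and the missing placement rule for reads that match both the insertion and mitochondrial DNA.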
